A study of Homo sapiens with 6 samples.

Results

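Transcripts of 9 genes that start, restrain or carry out cell death were measured in RCC4, an established human cell line of clear cell renal cell carcinoma. The genes were chosen by name, by a rule that used no measured value, although earlier results of these data were known at the time. They were the death ligand gene TNFSF10, the receptor genes FAS, TNFRSF10A and TNFRSF10B, the caspase genes CASP8 and CASP4, the caspase-like inhibitor gene CFLAR, and the lytic effector genes MLKL and GSDMD. All 9 were found by symbol among the 61541 genes listed, and all 9 were among the 10067 genes with enough counts to be tested. The study held 3 untreated cultures and 3 cultures given interferon gamma (IFNγ) and tumour necrosis factor (TNF) for 24 h, at 1000 U/mL and 25 ng/mL. Each biological replicate was collected from 3 flasks, and its poly(A)-selected RNA was read as native molecules on a nanopore flow cell of its own. No group analysed here received either cytokine alone, so the contributions of IFNγ and TNF cannot be told apart. All cultures were of 1 tumour line.

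Death ligands such as TRAIL, the product of TNFSF10, and Fas ligand bind receptors whose cytoplasmic death domains recruit the adaptor FADD and caspase-8. Caspase-8 then cleaves executioner caspases, which gives apoptosis, and also cuts RIPK1 and RIPK3, which holds back necroptosis. c-FLIP, encoded by CFLAR, resembles caspase-8 but lacks its protease activity, and competes for the same complex. Necroptosis and pyroptosis are lytic: MLKL, once phosphorylated by RIPK3, permeabilises the plasma membrane, and gasdermin D forms pores after inflammatory caspases such as caspase-4 cut it. Caspase-4 is the human sensor of cytosolic lipopolysaccharide. Interferon signalling, and TNF signalling through NF-kappaB, are textbook inducers of many of these genes.

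Library totals ran from 3626000 to 4406296 counts, so that 3 counts corresponded to between 0.674 and 0.862 CPM, the read count scaled to the TMM-normalised library size. All 9 carcinoma and epithelial markers looked at, among them the keratin gene KRT8 and the renal factor gene PAX8, had counts above 3 in at least 1 library, with summed levels of 6674 to 8222 CPM in untreated and 8801 to 11908 CPM in treated libraries, mostly from VIM. PAX8 and the keratin gene KRT19 were lower in every treated library, at 126 to 158 against 71.0 to 93.1 CPM and 325 to 409 against 146 to 214 CPM, and their part in the results was not tested. PTPRC, CD3E and MS4A1, which define leukocytes, had 0 counts in all 6 libraries, and 6 of the 7 leukocyte markers never exceeded 3 counts. The summed leukocyte list lay between 1.42 and 5.99 CPM and was lower in treated libraries. Most of this sum and of its difference came from 1 gene, CSF1R, with 22, 21 and 13 counts in untreated against 5, 5 and 4 in treated cultures. All 4 endothelial markers were at 0. The 4 fibroblast markers summed to 54.5 to 74.1 CPM in untreated and 27.3 to 48.9 CPM in treated libraries, with PDGFRA and DCN at 0. COL1A1 had 228, 172 and 278 counts in untreated against 161, 167 and 86 in treated cultures. PDGFRB had 36, 40 and 49 counts in untreated against 9, 12 and 10 in treated cultures. The part of either gene in the results was not tested. In bulk RNA such as this, fewer cells of a kind and less RNA per cell cannot be told apart.

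After IFNγ and TNF, 6 of the 9 genes rose: CASP4 and TNFSF10 by more than 9-fold, MLKL by 5.91-fold, and GSDMD, CASP8 and CFLAR by 2.63-fold, 2.58-fold and 2.17-fold. The receptor genes FAS, TNFRSF10A and TNFRSF10B had log2 fold changes of 1.69, 1.13 and 0.55 and did not pass the threshold. A gene is said to rise where its adjusted p was under 0.05 in the quasi-likelihood F test of edgeR, adjusted by Benjamini-Hochberg over all 10067 genes. By that rule 8.14% of all genes tested were called, 5.58% higher in treated cells and 2.55% lower (562 and 257 genes, or 489 and 363 with library totals in place of TMM scaling). All 6 genes that rose did so by at least 2-fold, as did 4.98% of all genes. For all 9 genes the lowest treated library exceeded the highest untreated one, a pattern found in 13.9% of all genes tested, while groups that did not overlap in either direction made up 25.9%. All 9 fold changes were positive on the log2 scale, as were 47.4% of all. The median log2 fold change of the 9 was 1.40, against -0.03 over all genes. DESeq2 called 8 of the 9 higher and limma voom 6, with 0 lower in either. Over all 10067 genes DESeq2 called 652 higher and 316 lower, and limma voom 559 and 236. At an unadjusted p under 0.05 edgeR had 9 higher and 0 lower, for which the share of all genes is not given here.

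**Figure D1:**
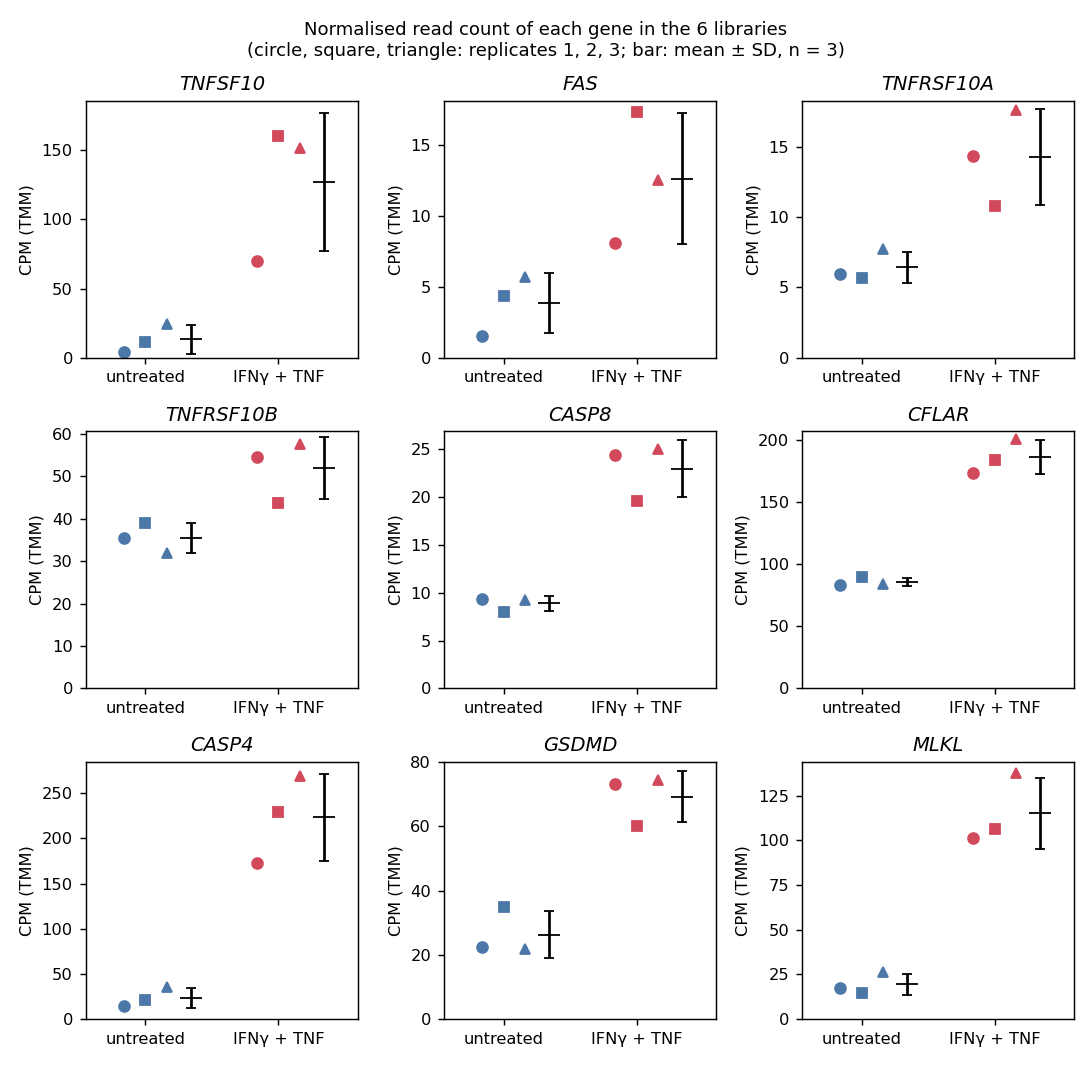
Normalised read count (CPM with TMM scaling, linear axes from 0) of the 9 genes in each library; circles, squares and triangles are replicates 1, 2 and 3, and bars give the mean ± SD of 3 libraries. All treated libraries (red) lie above all untreated ones (blue) in each panel, with the widest separation in CASP4 and the narrowest in TNFRSF10B.

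Promoter windows, from 250 bases before to 50 bases after a transcription start, were taken from RefSeq on GRCh38.p14 because most of these genes moved together. Windows were matched by symbol, and those of 6 of the 9 genes, 13 windows in all, were searched on both strands for short motifs. No window of TNFRSF10A, TNFRSF10B or GSDMD, which share a chromosome, was searched, so their motifs are unknown here. The motifs were the gamma-activated site (GAS, TTCNNNGAA), the interferon-stimulated response element core (ISRE core, GAAA, any 2 bases and GAAA again) and the NF-kappaB consensus. These occur in 7.66%, 3.57% and 5.91% of the 35116 windows of this length. No chromosome was left out of that background, so it was not handled in the same way as the 9 genes. The 4 windows shown carry the contrast between the genes, with motif matches in capitals and lower case elsewhere.
TNFSF10 chr3:172523381-172523680 (minus strand): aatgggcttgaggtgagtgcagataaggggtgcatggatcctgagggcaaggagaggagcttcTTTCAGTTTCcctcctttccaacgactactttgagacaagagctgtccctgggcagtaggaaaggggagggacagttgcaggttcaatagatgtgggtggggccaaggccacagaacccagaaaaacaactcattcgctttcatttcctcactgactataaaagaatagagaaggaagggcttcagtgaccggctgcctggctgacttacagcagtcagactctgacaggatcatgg
CASP8 chr2:201233213-201233512 (plus strand): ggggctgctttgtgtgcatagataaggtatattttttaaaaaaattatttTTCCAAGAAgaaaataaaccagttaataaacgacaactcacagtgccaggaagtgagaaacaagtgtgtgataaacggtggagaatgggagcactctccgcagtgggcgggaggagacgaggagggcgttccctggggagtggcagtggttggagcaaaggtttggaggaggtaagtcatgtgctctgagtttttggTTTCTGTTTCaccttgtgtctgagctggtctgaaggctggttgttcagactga
CFLAR chr2:201118466-201118765 (plus strand): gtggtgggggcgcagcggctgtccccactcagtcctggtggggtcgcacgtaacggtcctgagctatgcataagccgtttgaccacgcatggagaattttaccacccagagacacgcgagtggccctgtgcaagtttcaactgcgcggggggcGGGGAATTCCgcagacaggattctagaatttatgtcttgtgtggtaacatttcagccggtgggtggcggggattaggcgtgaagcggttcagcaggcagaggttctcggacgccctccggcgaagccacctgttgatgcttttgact
CASP4 chr11:104968525-104968824 (minus strand): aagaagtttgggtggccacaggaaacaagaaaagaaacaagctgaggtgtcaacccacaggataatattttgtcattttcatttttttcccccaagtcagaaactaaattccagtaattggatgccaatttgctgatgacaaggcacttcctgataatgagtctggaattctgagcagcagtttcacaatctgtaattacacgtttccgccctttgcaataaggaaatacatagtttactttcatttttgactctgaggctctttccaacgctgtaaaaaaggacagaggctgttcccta

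The TNFSF10 window held an ISRE core, printed as its reverse complement TTTCAGTTTC, from position -187 to -178 relative to the start, whose first transcribed base is 1. That of CASP8 held a GAS match, TTCCAAGAA, from position -200 to -192. It also held an ISRE core, TTTCTGTTTC, from position -3 to 7. The first CFLAR window held an NF-kappaB match, GGGGAATTCC, and 1 of the 3 FAS windows held another, GGGGGACCCC. None of the 3 motifs was found in the windows of CASP4 and MLKL, which were among the genes with the largest rises, or in the other windows of FAS, CASP8 and CFLAR. A match describes letters in a window of 300 bases and does not show that a factor bound there.

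TNFSF10 (ENSG00000121858; GRCh38 chromosome 3, 172505508 to 172523475) encodes TRAIL, a membrane-bound ligand that can trigger apoptosis in neighbouring cells. It had 4.43, 11.1 and 24.5 CPM in untreated replicates 1, 2 and 3 and 69.8, 159.9 and 151.3 CPM in the treated ones. The lowest treated library was 2.85 times the highest untreated one, although the untreated libraries themselves were widely spread. The means were 13.3 ± 10.2 and 127.0 ± 49.7 CPM (SD, n = 3 each), which is 3.24 ± 0.54 (SE) in log2 fold change (edgeR adjusted p 0.00612). Without untreated replicate 3, the highest of its group, the log2 fold change was 4.02. Of the 7 other ligand genes listed, which include those for Fas ligand, TNF and the lymphotoxins, none had enough counts to be tested. FASLG, the gene for Fas ligand, had 0 counts in all 6 libraries, and TNF itself, chosen after its values were seen, had 0, 2 and 0 counts in untreated against 4, 0 and 4 in treated cultures. LTB, which encodes lymphotoxin beta and had the highest mean level of these 7, had 1, 3 and 5 counts against 9, 11 and 12.

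The 3 receptor genes did not pass the threshold. FAS (ENSG00000026103; chromosome 10, 88953813 to 89029605) encodes the receptor for Fas ligand. It had 6, 17 and 25 counts in untreated against 28, 77 and 44 in treated cultures, equal to 1.56, 4.37 and 5.67 against 8.05, 17.3 and 12.5 CPM. The groups did not overlap, although the libraries within each were widely spread. FAS went from 3.87 ± 2.10 to 12.6 ± 4.63 CPM (SD, n = 3 each), which is 1.69 ± 0.47 (SE) in log2 fold change (edgeR adjusted p 0.063). FAS passed the threshold without untreated replicate 3 (edgeR adjusted p 0.0141) and in DESeq2 (0.0133). It also passed with all genes of 1 count or more tested (0.000701), a fit whose adjusted p are not comparable with the main one. Its adjusted p was 0.197 without treated replicate 2. Exons of STAMBPL1 cover 0.871% of its exonic bases on the same strand.

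TNFRSF10A and TNFRSF10B encode TRAIL receptors 1 and 2 (DR4 and DR5), both able to signal death, and lie near each other on chromosome 8. They are paralogs, as are CASP4 and CASP5, so reads could be assigned to the wrong copy. TNFRSF10A (ENSG00000104689; 23190452 to 23225102) had 5.99, 5.66 and 7.70 CPM in untreated and 14.4, 10.8 and 17.6 CPM in treated libraries. Its change in log2 was 1.13 ± 0.30 (SE; edgeR adjusted p 0.0521), just short of the threshold. It passed in 7 of 13 alternatives, among them DESeq2 (0.0439), edgeR with DESeq2 size factors (0.049) or either other filter (0.0292 and 0.0473), and edgeR without untreated replicate 3 (0.0285) or treated replicate 2 (0.049). Its adjusted p was 0.217 without treated replicate 3. TNFRSF10B (ENSG00000120889; 23020133 to 23069031) had 35.4, 39.1 and 32.0 CPM in untreated and 54.6, 43.8 and 57.6 CPM in treated libraries. The lowest treated value was 1.12 times the highest untreated one, and the change in log2 was 0.55 ± 0.20 (SE; edgeR adjusted p 0.151). TNFRSF10B did not pass the threshold in any of 13 alternatives, with log2 fold changes from 0.45 to 0.71.

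The count of TNFRSF10B relative to TNFRSF10A was compared within each library, where scaling does not enter. Its log2 value was 2.54, 2.76 and 2.04 in untreated and 1.92, 2.01 and 1.703 in treated libraries. All 3 treated libraries were lower, although untreated replicate 3 lay close to treated replicate 2. The means differed by -0.57, from 2.45 ± 0.371 to 1.88 ± 0.158 (SD, n = 3 each), and the exact permutation p, 2-sided, was 0.1, the lowest possible with 3 libraries a group, and 0.15 after adjustment over 3 such ratios. The decoy receptors bind TRAIL or related ligands without a death signal. TNFRSF10D, 1 of 4 decoy receptor genes and the only one tested, had 20, 13 and 12 counts in untreated against 8, 17 and 5 in treated cultures (-0.54 ± 0.47 SE in log2, edgeR adjusted p 0.632). TNFRSF10C and TNFRSF6B had 0 counts, and all exonic bases of TNFRSF6B (100%) are shared with a readthrough gene on the same strand, where reads are left uncounted.

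Among the 5 other death receptor genes, 3 were tested, 1 rose and 0 fell (median log2 fold change -0.54). The gene that rose was TNFRSF1A, which encodes the main receptor for soluble TNF, from 78.9 ± 6.66 to 161 ± 23.9 CPM (SD, n = 3 each), which is 1.03 ± 0.18 (SE) in log2 fold change (edgeR adjusted p 0.00798).

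**Figure D2:**
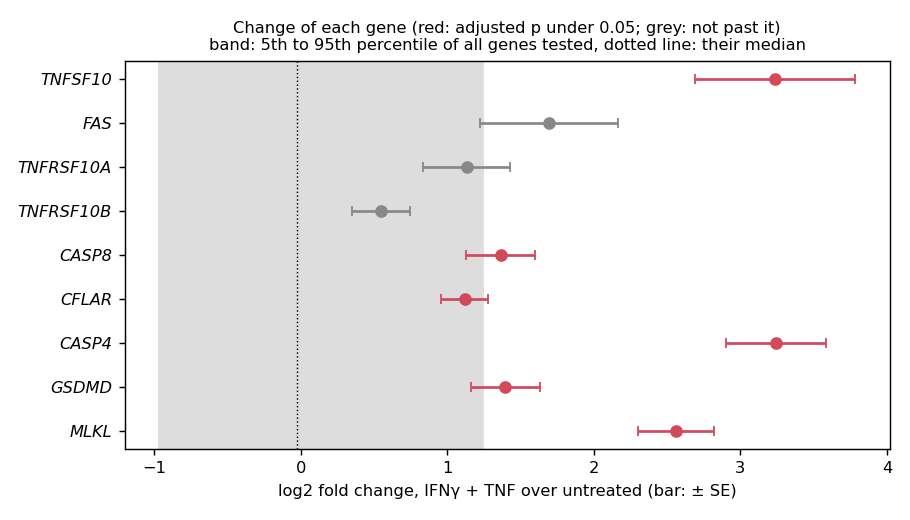
Log2 fold change of the 9 genes, treated over untreated, with bars of 1 SE either side; red marks an edgeR adjusted p under 0.05 and grey a value not past it. The band spans the 5th to 95th percentile of all genes tested (-0.96 to 1.24) and the dotted line marks their median (-0.03); TNFSF10, CASP4 and MLKL lie farthest to the right, and TNFRSF10A, TNFRSF10B and CFLAR lie within the band.

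At the receptor complex, the initiator caspase gene and the gene of its inhibitor both rose. CASP8 (ENSG00000064012; chromosome 2, 201233443 to 201287711) had 9.38, 7.98 and 9.29 CPM in untreated and 24.4, 19.5 and 25.0 CPM in treated libraries, and its lowest treated value was 2.08 times the highest untreated one. Its change in log2 was 1.37 ± 0.24 (SE; edgeR adjusted p 0.00708), and the adjusted p was 0.0501 without untreated replicate 2. CFLAR (ENSG00000003402; chromosome 2, 201116154 to 201176687), a near neighbour on the same strand, had 83.1, 89.8 and 84.5 CPM against 174, 184 and 201 CPM. It had the lowest coefficients of variation of the 9, 4.10% in untreated and 7.43% in treated libraries, and rose by 1.12 ± 0.16 (SE) in log2 fold change (edgeR adjusted p 0.00292). The counts are summed per gene, so the long and short forms of c-FLIP, which differ in their effect on caspase-8, were not separated.

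The log2 ratio of CASP8 to CFLAR counts was -3.13, -3.47 and -3.17 in untreated and -2.82, -3.23 and -3.003 in treated libraries. The groups overlapped, since treated replicate 2 lay below 2 of the untreated libraries. The difference of 0.24 between the means had an exact permutation p of 0.3, 2-sided, and 0.3 after adjustment over the 3 ratios. A difference in the size of the 2 rises was therefore not detected in 3 against 3 libraries, where p cannot go below 0.1.

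Of 15 other adaptor and initiator genes, 13 were tested, 5 rose and 0 fell (median log2 fold change 0.76). The ubiquitin-editing enzyme gene TNFAIP3 (A20), a brake on NF-kappaB and on death signalling, went from 9.41 ± 2.45 to 155 ± 45.3 CPM (SD, n = 3 each), which is 4.04 ± 0.30 (SE) in log2 fold change (edgeR adjusted p 4.387e-05). BIRC3, which encodes the ubiquitin ligase cIAP2, had 4, 12 and 8 counts in untreated against 20, 121 and 41 in treated cultures (2.90 ± 0.63 SE in log2, edgeR adjusted p 0.0215). Treated replicate 2 held most of its treated counts. Without that library BIRC3 had a log2 fold change of 2.17 and an adjusted p of 0.0708, and without treated replicate 3 an adjusted p of 0.0555. In limma voom its adjusted p was 0.0643.

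CYLD, a deubiquitinase that favours RIPK1-dependent death, rose 2.23-fold, and RIPK1, the kinase shared by the survival and death complexes, rose 2.15-fold, with adjusted p in edgeR of 0.0175 and 0.0417. RBCK1 (HOIL-1), part of the linear ubiquitin ligase complex and the gene with the highest mean level on this list, went from 339 ± 58.6 to 656 ± 127 CPM (SD, n = 3 each; 0.95 ± 0.21 SE in log2, edgeR adjusted p 0.0216). Each of these 3 calls was lost when any 1 of several libraries was left out. Over 13 alternatives the log2 fold changes ran from 1.05 to 1.33 for CYLD, 0.95 to 1.43 for RIPK1 and 0.82 to 1.14 for RBCK1. Leaving out 1 library also moved the number of calls over all genes, from 819 to between 455 and 1178. The edgeR adjusted p of CYLD was 0.0504 and 0.0951 without untreated replicates 1 and 2, and 0.0591 and 0.0707 without treated replicates 2 and 3. For RBCK1 it was 0.069 and 0.114 without untreated replicates 1 and 2, and 0.0636 and 0.0979 without treated replicates 1 and 3. RIPK1 did not pass without untreated replicate 1 or 2 (0.0945 and 0.171) or without treated replicate 1, 2 or 3 (0.0569, 0.102 and 0.156), nor with library totals alone (0.104). The next 3 genes were chosen after their values were seen: FADD, the adaptor itself, TRADD, the adaptor of the TNF receptor, and CASP10, the neighbouring caspase-8 relative, differed by 0.37, 0.76 and 1.26 in log2, with adjusted p in edgeR of 0.369, 0.0741 and 0.133. RNF31, also chosen after its values were seen and of which 68.4% of exonic bases are shared with another gene on the same strand, had 1 count in all.

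**Figure D3:**
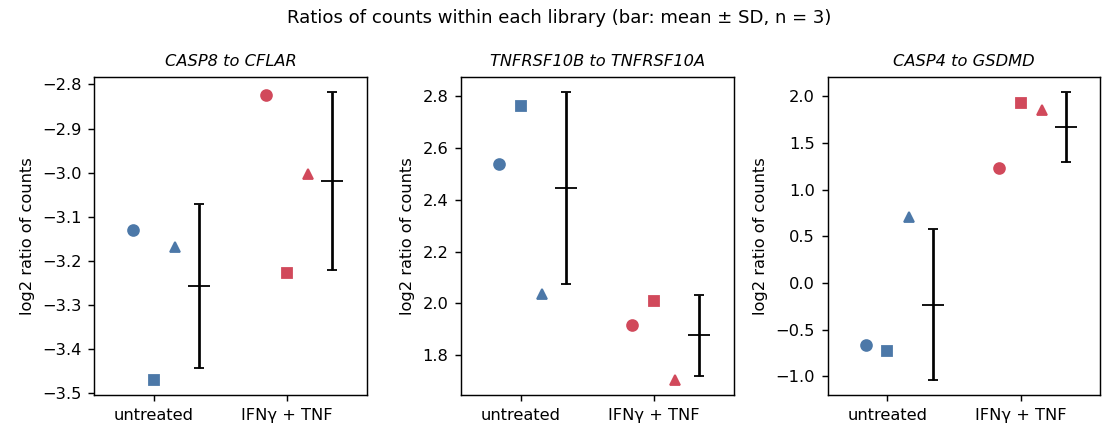
Log2 ratio of counts within each library for 3 gene pairs (circles, squares and triangles are replicates 1, 2 and 3; bars are mean ± SD, n = 3; axes do not start at 0). The groups overlap for CASP8 to CFLAR and do not overlap for the other 2 pairs, with the largest shift in CASP4 to GSDMD.

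Downstream of the initiators lie the genes of the apoptosome, of the mitochondrial pathway and of DNA fragmentation. Of the 12 genes of this list analysed here, 9 were tested, with 0 higher and 0 lower by edgeR (median log2 fold change -0.30). At an unadjusted p under 0.05 edgeR had 1 higher and 1 lower, DESeq2 called 1 higher and 0 lower after adjustment, and limma voom called 0 in either direction. BID, which links caspase-8 to the mitochondrial pathway and had the highest mean level of this list, differed by 0.70 ± 0.21 (SE, log2; edgeR adjusted p 0.0807). ENDOG, a mitochondrial nuclease gene chosen after its values were seen, had a log2 fold change of -0.65 (edgeR adjusted p 0.246). DIABLO, chosen in the same way, had 1 count in all, and 100% of its last 500 exonic bases are shared with other genes on the same strand.

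In the lytic pathways, CASP4 (ENSG00000196954; chromosome 11, 104942866 to 104969366) had 14.1, 20.8 and 35.6 CPM in untreated and 173, 229 and 269 CPM in treated libraries. The lowest treated library was 4.85 times the highest untreated one, the widest gap among the 9 genes. CASP4 went from 23.5 ± 11.0 to 224 ± 48.3 CPM (SD, n = 3 each), which is 3.24 ± 0.34 (SE) in log2 fold change (edgeR adjusted p 0.000448). GSDMD (ENSG00000104518; chromosome 8, 143553207 to 143563062), whose product caspase-4 cleaves, had 22.4, 34.7 and 21.8 CPM in untreated and 73.3, 60.2 and 74.4 CPM in treated libraries. It rose by 1.40 ± 0.24 (SE) in log2 fold change (edgeR adjusted p 0.00628).

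Protease and substrate genes were also compared within each library. The log2 ratio of CASP4 to GSDMD counts was -0.67, -0.73 and 0.71 in untreated and 1.24, 1.93 and 1.85 in treated libraries, with no overlap. The means differed by 1.90 (exact permutation p = 0.1, 2-sided, the smallest possible; 0.15 after adjustment over the 3 ratios). Untreated replicate 3 lay apart from the other untreated libraries on this ratio, and without it the difference was 2.37.

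MLKL (ENSG00000168404; chromosome 16, 74671855 to 74700960), the executor of necroptosis, had 17.5, 14.7 and 26.1 CPM in untreated and 101, 106 and 138 CPM in treated libraries. The groups were far apart, with the lowest treated value 3.89 times the highest untreated one. MLKL went from 19.4 ± 5.94 to 115.0 ± 19.7 CPM (SD, n = 3 each), which is 2.56 ± 0.26 (SE) in log2 fold change (edgeR adjusted p 0.000352), the smallest of the 9. RIPK3, the kinase that activates MLKL, had 0 counts in all 6 libraries, where 3 counts would be at most 0.862 CPM. Exons of another gene on the same strand cover 11.1% of its exonic bases and 0 of its last 500. ZBP1, a nucleic acid sensor that can engage RIPK3, had 0 counts in untreated against 17, 20 and 39 in treated cultures, at least 9.16-fold higher against 3 counts in each untreated library, 0.744 CPM on average (edgeR adjusted p 0.00432). Of 8 other necroptosis genes, 7 were tested, 2 rose (RIPK1 and ZBP1) and 0 fell, with a median log2 fold change of 0.37. STUB1, a ubiquitin ligase gene with the highest mean level there, had a log2 fold change of -0.03 that changed sign in 4 of 13 alternatives.

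Of 16 other inflammatory caspase and inflammasome genes, 6 were tested, 2 rose and 0 fell (median log2 fold change 1.39). CASP1, the gene of the canonical inflammasome caspase, had 0, 0 and 1 counts in untreated against 22, 78 and 51 in treated cultures. The ratio of the pooled normalised counts was 160 with a 95% counting interval from 28.3 to 6362, and the edgeR adjusted p was 0.000716. NLRP3, an inflammasome sensor gene, had 3, 0 and 0 counts against 21, 15 and 10, a ratio of 16.3 (95% counting interval 5.22 to 81.7) with an edgeR adjusted p of 0.0249. NLRP3 did not pass without untreated replicate 2 (0.106) or without treated replicate 1, 2 or 3 (0.0891, 0.0641 and 0.0658). All 3 untreated counts came from replicate 1, and without that library the fitted log2 fold change went from 3.87 to 7.03, a value set partly by the prior count since the untreated group is then at 0. These intervals cover counting error only. PYCARD, the gene of the adaptor ASC that joins such sensors to caspase-1, had 0 counts in all 6 libraries, and none of its exonic bases are shared on the same strand. CASP5, CARD17P, CARD18, NLRC4 and NAIP also had 0 counts.

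CARD16, a short relative of CASP1 whose reads could be split with it, had 0 counts in untreated against 5, 14 and 14 in treated cultures. IFI16, a DNA sensor gene and the highest in mean level on that list, had 8, 17 and 101 counts in untreated against 82, 342 and 209 in treated cultures (2.42 ± 0.74 SE in log2, edgeR adjusted p 0.0879). It passed without untreated replicate 3 (4.02 in log2, edgeR adjusted p 0.000332).

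Of 9 other gasdermin and membrane rupture genes, 5 were tested, 1 rose and 0 fell (median log2 fold change 0.49). The gene that rose was GSDMB, another gasdermin gene, with 0 counts in untreated against 22, 17 and 30 in treated cultures, at least 8.35-fold higher against 3 counts per library (edgeR adjusted p 0.00316). CHMP4B, part of the membrane repair machinery and highest in mean level, had a log2 fold change of 0.45 (edgeR adjusted p 0.146). GSDME and NINJ1, chosen after their values were seen, encode a further gasdermin and a protein of plasma membrane rupture. They differed by 0.35 and 0.59 in log2, with adjusted p in edgeR of 0.502 and 0.267. GSDMA, GSDMC and IRGM had 0 counts.

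Over all lists, 74 other genes were analysed here, 42 of them tested, 10 higher and 0 lower by edgeR (13 and 0 by DESeq2, 9 and 0 by limma voom; 17 and 2 at an unadjusted p under 0.05 in edgeR), with 13 at 0 counts in all 6 libraries. Their median log2 fold change was 0.36. Over all genes, edgeR called 562 of 10067 higher and 257 lower (652 and 316 by DESeq2, 559 and 236 by limma voom). Of all 61541 genes listed, 42383 had 0 counts. No median given for a list of other genes changed when the 4 tested genes with 3 counts or fewer in every untreated library were set to their level against 3 counts. Without treated replicate 3, the number of these list genes higher was 5, against 359 over all genes.

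**Figure D4:**
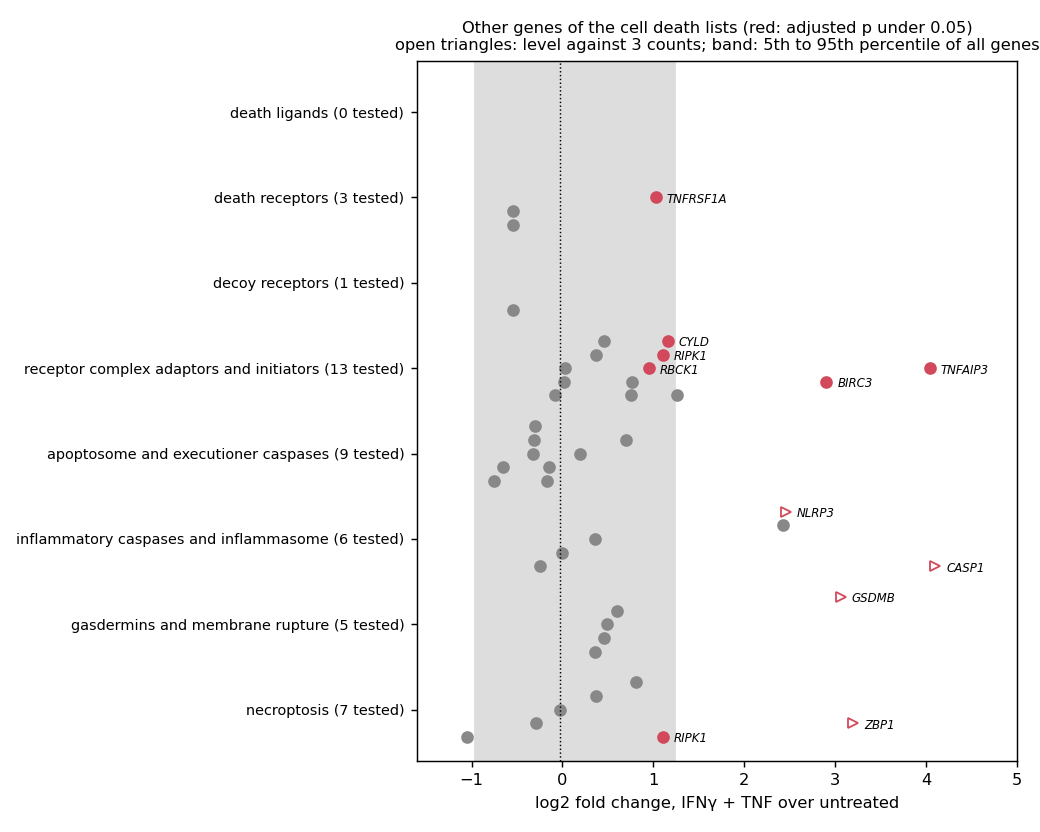
Log2 fold change (treated over untreated) of the tested genes on each list other than the 9 genes, with red for an edgeR adjusted p under 0.05 and grey for the rest. Open triangles show genes with 3 counts or fewer in every untreated library, placed at their mean treated level against 3 counts; the band is the 5th to 95th percentile of all genes, RIPK1 and FADD are on 2 lists, and no point past the threshold lies on the left.

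The 9 genes differed in how much they varied between libraries of 1 group. In untreated cells the coefficient of variation was 76.7% for TNFSF10, 54.2% for FAS and 46.8% for CASP4, against 8.85% for CASP8 and 10.1% for TNFRSF10B. Untreated replicate 3 was the highest untreated library for 5 of the 9 genes (FAS, TNFSF10, TNFRSF10A, CASP4 and MLKL), and untreated replicate 1 the lowest for 4 (FAS, TNFSF10, CASP4 and CFLAR). Treated replicate 1 was the lowest treated library for 5 (those 4 and MLKL), treated replicate 2 for the other 4, and treated replicate 3 was the highest for 7. The library scores on the second principal component of all genes, which held 27.1% of the variance, were 35.3, 7.30 and -49.5 in untreated and 34, -17.9 and -9.21 in treated libraries. Count-weighted exonic length was 4238, 4275 and 4484 bases in untreated and 4204, 4376 and 4238 in treated libraries. The part of either measure in the members' spread was not tested. The summed level of the 9 genes was 194, 228 and 247 CPM in untreated and 693, 831 and 946 CPM in treated libraries.

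**Figure D5:**
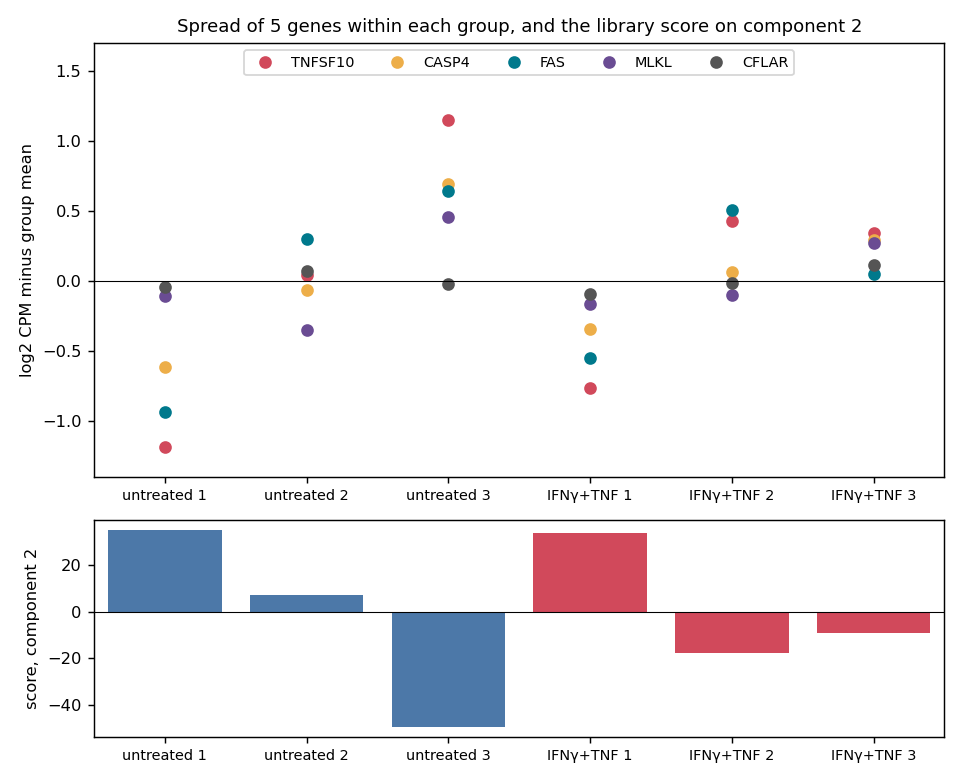
Upper panel, log2 CPM minus the group mean for 5 of the genes in each library; lower panel, the score of each library on the second principal component of all genes (arbitrary units). TNFSF10, CASP4 and FAS are lowest in the replicates numbered 1, which have the highest scores, while CFLAR stays close to 0 throughout.

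Outside the 9 genes and the lists, the genes whose log2 CPM most resembled the mean standardised profile of the 9 over the 6 libraries were ISG20, SHFL and EBI3, with Pearson r of 0.998, 0.998 and 0.997. Of the other genes tested, 5.80% had r above 0.9. Both groups enter r, so the difference between treated and untreated libraries counts towards it. Likeness within a group was not measured separately.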

How the data were processed

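Deposited values were raw read counts per gene, made by the authors with featureCounts 2.0.1 in long-read mode on exons of Ensembl release 105 (GRCh38), strand-specific, per the file headers. The submitters' processing notes list minimap2 2.24, SAMtools 1.16, featureCounts 2.0.0 and hg38, and reads had a mean quality above 7 per the series design text. No option to count multi-mapping or multi-gene reads appears in the headers, so by the program's defaults a read touching exons of more than 1 gene is left uncounted. The headers name the alignments with the word dmso, while the labels describe no vehicle; groups and replicates follow the sample titles.

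Symbols were paired for 61369 of 61541 identifiers. Counts were tested with edgeR 4.0.16 (R 4.3.3) by quasi-likelihood F test with group as the sole term, TMM scaling and filterByExpr. Benjamini-Hochberg adjustment ran over all 10067 genes with a threshold of 0.05. CPM uses TMM-scaled library sizes, and SE is the absolute log2 fold change over the square root of F. Ratios used counts plus 0.5 and 2-sided exact permutation tests. On simulated data with 200 planted changes, 136 were recovered with the right sign, and 9 other genes were called. Of those recovered, 20 were 2-fold, 58 were 4-fold and 58 were 8-fold, from sizes planted in near equal numbers. A 2-fold change was thus often missed in the simulation. Chi-square per degree of freedom between replicates was 3.48 to 24.7, above counting noise, and each library was kept as a replicate.

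The 9 genes, the lists and the tests were chosen with earlier results of these data known. Named were the 9 genes, other list genes past the threshold, at 0 counts or highest in mean level on a list, and the 3 genes most like the mean profile; any other gene is marked in the text as picked with its values in view. From the lists, 2 genes, and from the leukocyte markers, 1, are not reported here and were left out of every list count, whatever their values. Alternatives were DESeq2 size factors, library totals alone, 2 other filters, DESeq2 1.42.0, limma 3.58.1 voom, the replicate number as a block, other pseudocounts and leaving out each library.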

Additional observations from a re-analysis of the deposited data

How the results depend on the processing

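All 117 log2 fold changes of the 9 genes under 13 alternatives were positive. These are refits of the same libraries, in which all treated values of the 9 genes lay above all untreated ones. A change of sign was therefore unlikely from the start. The number called higher was 8 with all genes of 1 count or more tested, 8 in DESeq2, 6 in limma voom and with library totals alone, and from 5 to 8 when 1 library was left out. Library totals alone placed the median of all genes at -0.13 and split all calls into 489 higher and 363 lower, against 562 and 257. For the other list genes, the number higher was 10, against 18 with all genes of 1 count or more tested and from 5 to 12 when 1 library was left out. Over all genes the numbers higher in the same fits were 562 of 10067, 849 of 19158, and from 358 to 733.

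Replicate numbers are shared by the groups, but the correlations of same-numbered libraries' deviations were 0.651, -0.0037 and 0.374, so the numbers were not taken as pairs. As a hint from the data, not every library correlated best with its own number: treated replicate 2 was closest to untreated replicate 3 (0.413). With the replicate block, 8 of the 9 genes were higher, all but TNFRSF10B, and 16 other list genes were higher and 1, ENDOG, lower. Over all genes the block gave 1512 calls against 819, the fit of all genes with 1 count or more 1328, and leaving out untreated replicate 2 or treated replicate 3 gave 465 and 455. Differences of the ratios kept their sign throughout, and as mean differences of same-numbered libraries they gave exact sign-flip p of 0.25, the smallest that 3 pairs allow. The log2 fold change of STUB1 turned to 0.07, 0.10, 0.08 and 0.03 without untreated replicate 1 or 2 or treated replicate 2 or 3, and leaving out 1 library gave -0.23 to 0.10. Only some list genes that did not pass were followed over all alternatives, and of these BID, IFI16, TRADD and CASP10 passed in 3, 3, 4 and 2 of 13. TRAF2 and TICAM1, chosen after their values were seen, were not followed in that way. With the replicate block they were higher, with edgeR adjusted p of 0.0182 and 0.00861. The causes were not tested. At this depth a count of 0 allows a level of up to 0.862 CPM, so absence was not shown for any gene.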

Other observations

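Some list genes had too few counts for the main filter and were tested only in a fit of all genes with 1 count or more. Of these, CARD16 (0 counts in untreated; 5, 14 and 14 in treated libraries) and MEFV, the pyrin inflammasome sensor gene (0 in untreated; 6, 11 and 9 in treated), had edgeR adjusted p of 1.305e-06 and 2.512e-05 in that fit. Against 3 counts per library they were at least 3.83-fold and 3.02-fold higher. The adjusted p of that fit are not comparable with those of the main one. In edgeR, TNFSF10 went from 0.00612 to 1.118e-30 and CASP4 from 0.000448 to 6.697e-34, while TNFRSF10B went from 0.151 to 0.229. TNFSF15, a ligand gene, had an edgeR adjusted p of 0.0318 there, but 9 of its 10 counts came from treated replicate 3. AIM2, a DNA sensor gene of the inflammasome, had 1, 6 and 2 counts in treated and 0 in untreated libraries (edgeR adjusted p 0.0578), and LTB had an adjusted p of 0.0527. These genes were chosen after their values were seen.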
